A study of Mus musculus with 4 samples.

Results

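M-cadherin (*Cdh15*) and 9 other genes of cell adhesion and myoblast fusion were read out in C2C12 myoblasts with and without a knockdown of *Hnrnpl*. The 10 genes were listed by name and found by gene symbol among the 56748 gene IDs of the deposited count files. They are the cadherins *Cdh15*, *Cdh2* and *Cdh11*, the catenins *Ctnna1* and *Ctnnd1*, the surface molecules *Ncam1*, *Cd44* and *Megf10*, and the fusion genes *Mymk* and *Mymx*. C2C12 is an established mouse myoblast line, labelled wild type in both groups and kept in growth medium with serum. Stable eGFP-positive, puromycin-resistant cells carried either a scrambled shRNA (2 libraries) or a cocktail of 3 shRNAs against *Hnrnpl* (2 libraries). All libraries of a group were passages of 1 selected stable line, so the p-values measure the spread between passages, and the shRNA and the line that carries it cannot be told apart. Each of the 2 batches in the labels held 1 library of each group.

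Adhesion comes before fusion in muscle. Cadherins are calcium-dependent receptors that bind the same kind of cadherin on a neighbouring cell and are tied to actin on the inside through catenins, and M-cadherin is the member typical of myoblasts and satellite cells. Fusion itself needs the muscle-specific membrane proteins myomaker and myomixer, which are known to come on when myoblasts leave growth medium and differentiate. The study examined the transcripts of myoblasts with a knockdown of *Hnrnpl*, which encodes an RNA-binding protein. The comparison here asks how the genes of adhesion and fusion stood before differentiation.

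The sequences that set the groups apart are the 21-base targets of the 3 shRNAs in *Hnrnpl*, read from the sample labels and printed 5′ to 3′, with capitals for the bases 14 to 20 that would pair with the seed (positions 2 to 8) of a fully complementary guide strand.
shRNA 1 target: attgacggagtagTGGAAGCt
shRNA 2 target: ctactccataaccACGGATGt
shRNA 3 target: atggtctatggctTGGATCAa
Each target occurs without a mismatch in transcripts of *Hnrnpl* in GENCODE vM39. In the transcripts of the 10 members the nearest stretch of the same length had at least 5 mismatches, a value reached in *Cdh11*. The 7 capital bases alone are common. They occur in the canonical transcript of 37.6%, 10.0% and 23.1% of the tested genes for the targets numbered 1, 2 and 3. The *Cdh15* transcript holds those of target 2 once and those of target 3 at 2 places. Those of target 1 occur at 3 places in the *Ctnna1* transcript and at 1 place in the *Ncam1* transcript. Members that were not called hold them too, among them *Cd44* (1 place for each target), *Ctnnd1* (2 places for target 1), *Megf10* (1 place each for targets 1 and 3) and *Cdh2* (1 place for target 1). Such a match is a description of the letters and was not tested as a site.

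The 250 bases before the canonical start of *Cdh15* and *Ncam1* are shown from GRCm39 on the strand of the gene. These members had the largest log2 fold changes in size. Capitals mark the E-box motif CANNTG, the letters bound by myogenic factors such as MyoD, which read the same on both strands.
*Cdh15* promoter, chr8:123574455-123574704, forward strand: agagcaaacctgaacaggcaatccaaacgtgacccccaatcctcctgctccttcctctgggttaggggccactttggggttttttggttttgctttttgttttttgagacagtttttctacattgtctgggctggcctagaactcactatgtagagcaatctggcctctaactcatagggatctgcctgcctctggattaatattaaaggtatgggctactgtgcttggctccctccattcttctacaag
*Ncam1* promoter, chr9:49710358-49710607, reverse strand: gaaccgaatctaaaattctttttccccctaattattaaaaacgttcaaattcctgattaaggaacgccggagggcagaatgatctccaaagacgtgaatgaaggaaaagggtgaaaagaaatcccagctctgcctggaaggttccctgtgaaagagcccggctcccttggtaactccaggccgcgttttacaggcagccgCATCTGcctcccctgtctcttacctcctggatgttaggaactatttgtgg
The *Cdh15* window held no CANNTG and the *Ncam1* window held 1, starting 50 bases before the start site. Among the 10 members 5 had at least 1 match, against 64.8% of the windows of all 21770 protein-coding genes and 58.2% of those of tested ones. These 5 include *Cdh11*, *Mymk* and *Mymx*, which had no reads. The form CAGCTG, which is counted among the CANNTG matches, was found in the window of *Mymx* alone among the members. It was found in 11.9% of all windows and 10.4% of those of tested genes.

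The libraries held between 1229424 and 1676911 counted reads. The targeted gene had 358 and 656 reads with the scrambled shRNA against 242 and 258 with the knockdown. Its log2 fold change was -0.78 (standard error, SE, 0.18, adjusted p = 0.0112, quasi-likelihood test of edgeR). It was -0.47 without scrambled 2 and -0.63 without knockdown 1, and in both cases over 0.05 (adjusted p of edgeR 0.164 and 0.283). With the parametric fit of DESeq2 the adjusted p was 0.0567 by the Wald and 0.0670 by the likelihood-ratio test. Of the 9 myoblast markers, *Des* (desmin) had the most reads and *Pax7* had none, and *Myod1* had 1 read in all, although MyoD is a defining factor of these cells. The summed level of the myoblast markers was 1086 and 1303 normalized counts in scrambled and 912 and 776 in knockdown. Of the 16 markers of differentiated muscle, 9 had no read in any library, *Myog*, *Myh3* and *Ckm* among them, and *Acta1* had the most reads. Their summed level was 37.7 and 30.3 normalized counts in scrambled and 16.9 and 31.6 in knockdown. In bulk RNA, fewer cells that express a gene and less RNA per cell cannot be told apart.

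Reads were found on 7 of the 10 members, and all 7 passed the filter on low counts and were tested. A gene was called by the thresholds of the study, which ask for more than 10 normalized counts on average, a log2 fold change beyond 0.5 in size and an adjusted p below 0.05. *Cdh15*, *Ncam1* and *Ctnna1* were called, 3 of 7, each lower in knockdown. Over all 8670 genes tested, 5.55% were called, 3.22% as lower and 2.33% as higher. The members were chosen with earlier results of these data known, so these shares are no test of the list. The adjusted p alone was below 0.05 for the same 3 members and for 5.95% of all genes, and the unadjusted p for 5 members and 21.8% of all genes. The replicate block and the Wald test of DESeq2 with the local fit also called 3 members, where 5.58% and 2.68% of all genes were called. The parametric fit of DESeq2 called 1 member, *Cdh15*. It called 115 genes in all by the Wald test and 112 by the likelihood-ratio test, against 481 with edgeR. Without knockdown 1 the log2 fold changes were -2.91 for *Cdh15*, -1.26 for *Ncam1* and -0.65 for *Ctnna1*. The median log2 fold change of the 7 members was -0.57, beside -0.00059 for all genes tested. With only 2 libraries per group an exact permutation test cannot give a p under 0.333, so the tests below are those of the fit across all genes. The groups were apart without overlap in all 7 members, 5 of them lower and 2 higher in knockdown. That holds for 52.4% of all genes tested, 26% lower and 26.4% higher, and nothing is read from it here.

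**Figure D1:**
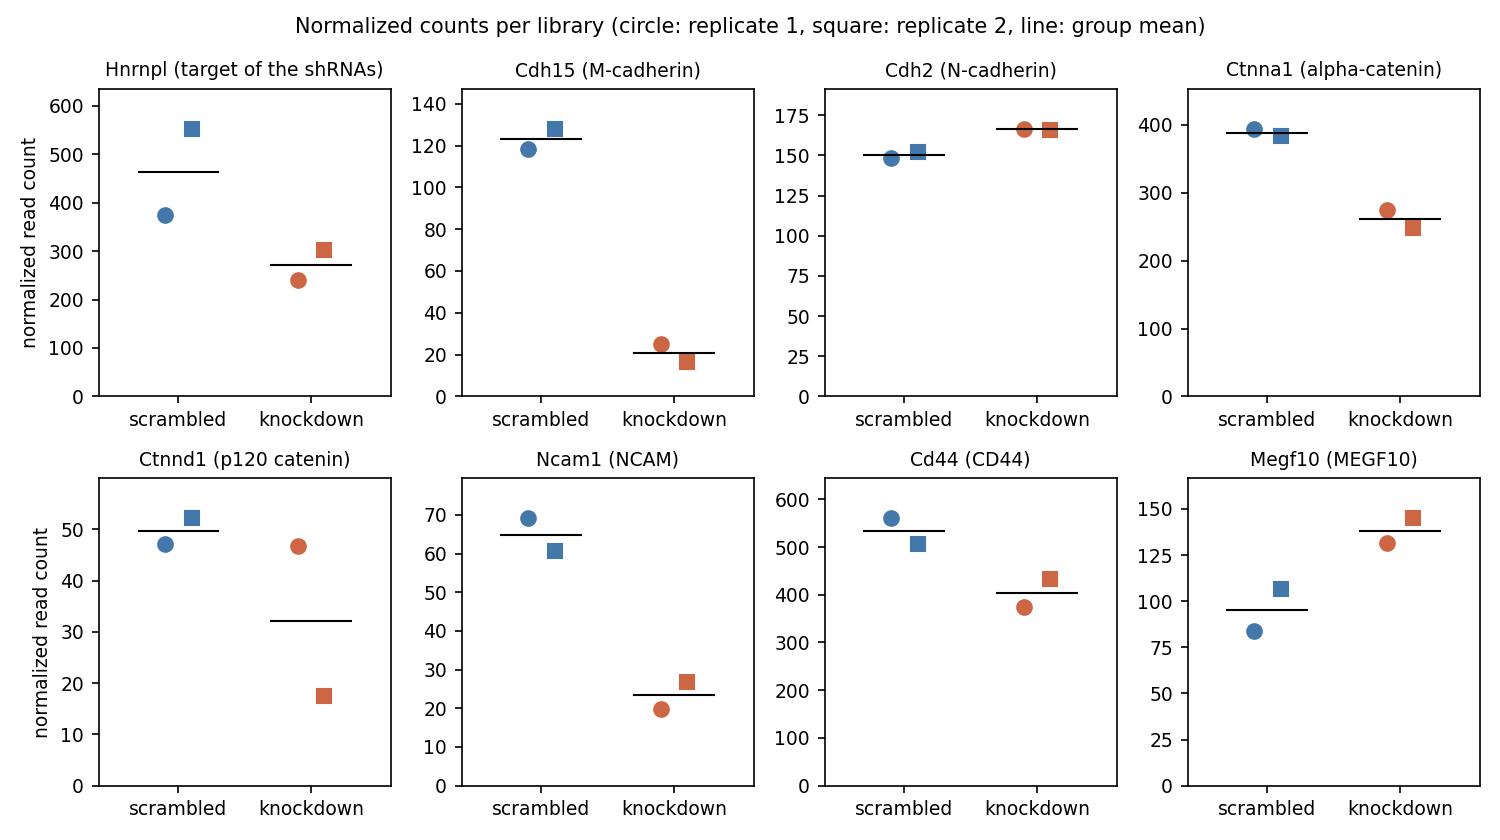
Normalized read counts (linear axis from 0, scaled by TMM) of *Hnrnpl* and the 7 members with reads, 1 panel per gene, for scrambled (blue) and knockdown (orange). Circles are replicate 1, squares replicate 2 and lines the mean of the group. *Cdh15* lay at 118 and 128 in scrambled and at 24.9 and 16.4 in knockdown, while the 2 knockdown libraries of *Ctnnd1* lay far apart at 46.8 and 17.5.

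*Cdh15* (ENSMUSG00000031962.7, GRCm39 chromosome 8, 123574705 to 123596048) was covered by 113 reads in scrambled 1 and 152 in scrambled 2, but by 25 in knockdown 1 and 14 in knockdown 2. Both knockdown libraries were far below the scrambled ones. After scaling, the scrambled libraries held 123 ± 6.76 normalized counts (SD, n = 2) and those of the knockdown 20.6 ± 6.04 (SD, n = 2), a mean lower by 83.2%. Its log2 fold change was -2.55 (SE 0.24, 95% interval -3.05 to -2.06, adjusted p = 2.03e-06 from edgeR) and held rank 7 by p among all genes tested. The ratio of knockdown to scrambled was -2.25 on the log2 scale in batch 1 and -2.97 in batch 2. With single libraries left out the value stayed between -2.91 and -2.30, with adjusted p-values from edgeR of 0.0179 at most. Among all genes of chromosome 8 the median was -0.08. The summed myoblast markers given above were lower in knockdown too, and their part in the result was not tested. Of the 5 tested, *Chrna1* (-1.53) and *Des* (-0.56) were called and carried most of the drop in the sum, while *Myf5* (-0.16), *Sdc4* (0.03) and *Vcam1* (0.29) were not called.

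*Cdh2*, N-cadherin, is the other classical cadherin of myoblasts (chromosome 18, 16700793 to 16942381). Scrambled 1 and 2 had 142 and 181 reads, knockdown 1 and 2 had 167 and 142. The level was nearly the same after scaling, with 150 ± 2.54 normalized counts (SD, n = 2) for scrambled against 166 ± 0.298 (SD, n = 2) for knockdown. The log2 fold change was 0.14, with a 95% interval from -0.18 to 0.47 (SE 0.16, adjusted p = 0.644 from edgeR). Once the median of its chromosome (-0.28) was subtracted its value was 0.42 (adjusted p = 0.180 from edgeR). *Cdh11*, a cadherin of mesenchymal cells (chromosome 8, 103358726 to 103512687), had no reads in any library. A count of 0 allows up to 3 counts, which corresponds to 2.52 to 3.51 normalized counts per library and covers counting error only.

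The mix of cadherins within a library does not depend on scaling. *Cdh15*, *Cdh2*, *Cdh11* and the other 16 cadherin genes searched took 295 and 399 reads in scrambled and 229 and 182 in knockdown. *Cdh15* made up 38.3% of them in scrambled 1 (95% Clopper-Pearson interval 32.7% to 44.1%) and 38.1% in scrambled 2 (33.3% to 43.1%). In knockdown 1 its share was 10.9% (7.19% to 15.7%) and in knockdown 2 it was 7.69% (4.27% to 12.6%). These intervals cover counting error only, and replicate libraries spread more widely than counting alone gives (chi-square per gene 2.54 in scrambled and 2.79 in knockdown). *Cdh2* took 48.1% and 45.4% of the cadherin reads in scrambled and 72.9% and 78.0% in knockdown. There were 0.796 and 0.840 reads of *Cdh15* for each read of *Cdh2* in scrambled and 0.150 and 0.0986 in knockdown, a ratio of reads and not of reads per length. Most of the remaining cadherin reads were on *Cdh13*, a cadherin anchored to the membrane by lipid, with 35 and 55 reads before and 33 and 23 after the knockdown (log2 fold change -0.47, SE 0.28, adjusted p = 0.339 from edgeR).

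**Figure D2:**
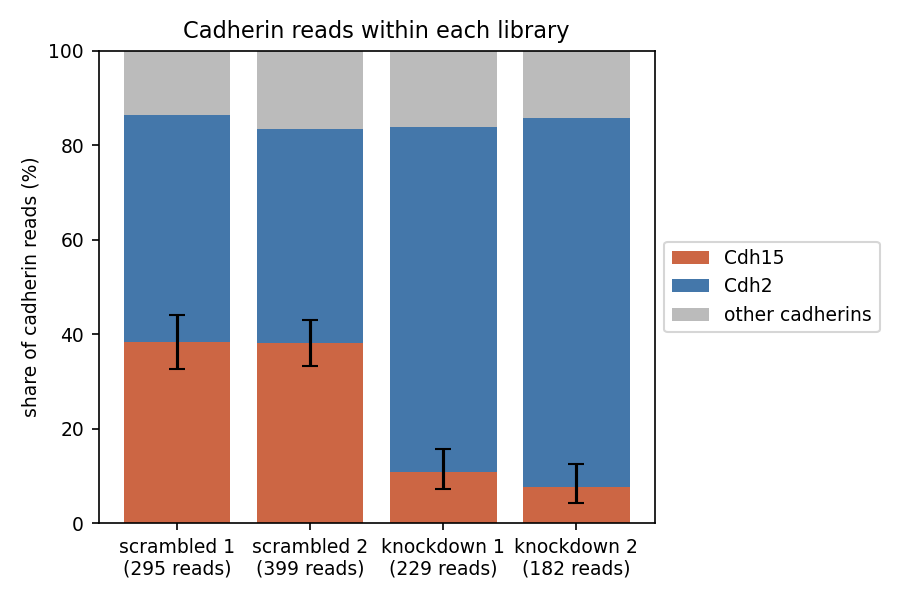
Share of cadherin reads (%) in each library, with *Cdh15* in orange, *Cdh2* in blue and the other 17 cadherin genes in grey. Error bars are 95% Clopper-Pearson intervals of the *Cdh15* share. *Cdh15* took 38.3% and 38.1% in the scrambled libraries and 10.9% and 7.69% in the knockdown libraries.

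Of the catenins, *Ctnna1* fell. It encodes alpha-catenin, which joins the cadherin and beta-catenin complex to actin filaments (chromosome 18, 35226033 to 35387833). The scrambled libraries had 376 and 456 reads and the knockdown libraries 276 and 212, or 389 ± 7.11 normalized counts (SD, n = 2) against 261 ± 19.2 (SD, n = 2). Each knockdown library lay below either scrambled library by more than the spread within a group. The log2 fold change was -0.57 (SE 0.14, 95% interval -0.87 to -0.27, adjusted p = 0.0231 from edgeR), with -0.52 in batch 1 and -0.63 in batch 2. Genes of chromosome 18 had a median of -0.28, and after subtracting it *Ctnna1* stood at -0.29 (adjusted p = 0.356 from edgeR). The call was also lost with the parametric fit of DESeq2 (adjusted p = 0.182 by the Wald test) and without any single library, with values between -0.65 and -0.50 and adjusted p-values of edgeR from 0.0501 to 0.150.

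*Ctnnd1*, p120 catenin, binds the inner stretch of cadherins next to the membrane and keeps them at the surface (chromosome 2, 84425959 to 84489326). Reads numbered 45 and 62 in scrambled, then 47 and 15 in knockdown. After scaling, knockdown 1 lay just under the scrambled libraries and knockdown 2 well below them. The log2 fold change was -0.59 with a 95% interval from -1.26 to 0.08 (SE 0.32, adjusted p = 0.296 from edgeR). Single libraries set its size: it was -0.09 without knockdown 2 and -1.50 without knockdown 1. In GENCODE vM39, 37.6% of the exonic bases of *Ctnnd1* are shared with *Gm28635* on the same strand, and reads over both genes could be set aside in the counting.

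Among the surface molecules, *Ncam1* fell. NCAM is an adhesion molecule with immunoglobulin domains, known from nerve cells and from myoblasts and young muscle fibres (chromosome 9, 49413436 to 49710357). Scrambled 1 and 2 held 66 and 72 reads against 20 and 23 in the knockdown libraries, which is 64.8 ± 6.03 normalized counts (SD, n = 2) against 23.4 ± 4.92 (SD, n = 2). The groups were well apart, with a mean lower by 63.9% in knockdown. The log2 fold change was -1.47 (SE 0.27, 95% interval -2.03 to -0.91, adjusted p = 0.00231 from edgeR), with -1.79 in batch 1 and -1.17 in batch 2. Without knockdown 1 the value was -1.26 and the adjusted p of edgeR 0.142, and with the parametric fit of DESeq2 the adjusted p was 0.0770 by the Wald test. Chromosome 9 had a median of -0.37, and after its removal *Ncam1* stood at -1.11 and was called. Markers of nerve cells also moved with the groups: 3 of 6 had reads, with a summed level of 427 and 310 normalized counts in the scrambled libraries against 19.9 and 22.2. Nearly all of these reads were on *Stmn2* and *Tubb3*, while *Map2*, *Sox10* and *Snap25* were at 0. Adipocyte markers, 5 of 6 with reads, stood at 36.6 and 40.4 in the scrambled libraries against 75.7 and 59.6. *Pparg* was called higher (log2 fold change 1.42, adjusted p = 0.00271 from edgeR), and *Plin1* had no reads. *Cebpa* had a log2 fold change of -2.12 and was not called. It had 12 and 14 reads in scrambled against 3 and 2 in knockdown, and passed the low-count filter through the scrambled libraries. The part of either list in the result was not tested.

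*Cd44*, the receptor for the matrix sugar hyaluronan (chromosome 2, 102641486 to 102732010), was the member with the most reads, 535 and 603 with the scrambled shRNA and 376 and 370 with the knockdown. Both knockdown libraries were lower, at 404 ± 40.9 normalized counts (SD, n = 2) against 534 ± 37.4 (SD, n = 2). The log2 fold change of -0.40 (SE 0.14, 95% interval -0.70 to -0.11) had an unadjusted p of 0.00989 and an adjusted p of 0.0965 from edgeR, so *Cd44* was not called. It was -0.58 in batch 1 and -0.23 in batch 2.

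*Megf10* encodes a receptor with EGF-like repeats that is known from muscle satellite cells and from the uptake of dying cells (chromosome 18, 57266162 to 57430693). Its 80 and 127 reads in the scrambled libraries stood against 132 and 124 with knockdown, and 95.3 ± 16.3 against 138 ± 9.48 normalized counts (SD, n = 2 each). Here both knockdown libraries were the higher ones. The log2 fold change of 0.52 (SE 0.18, 95% interval 0.16 to 0.89) had an unadjusted p of 0.00768 and an adjusted p of 0.0851 from edgeR. After subtracting the median of chromosome 18 (-0.28), *Megf10* stood at 0.80 and was then called (adjusted p = 0.0118 from edgeR).

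**Figure D3:**
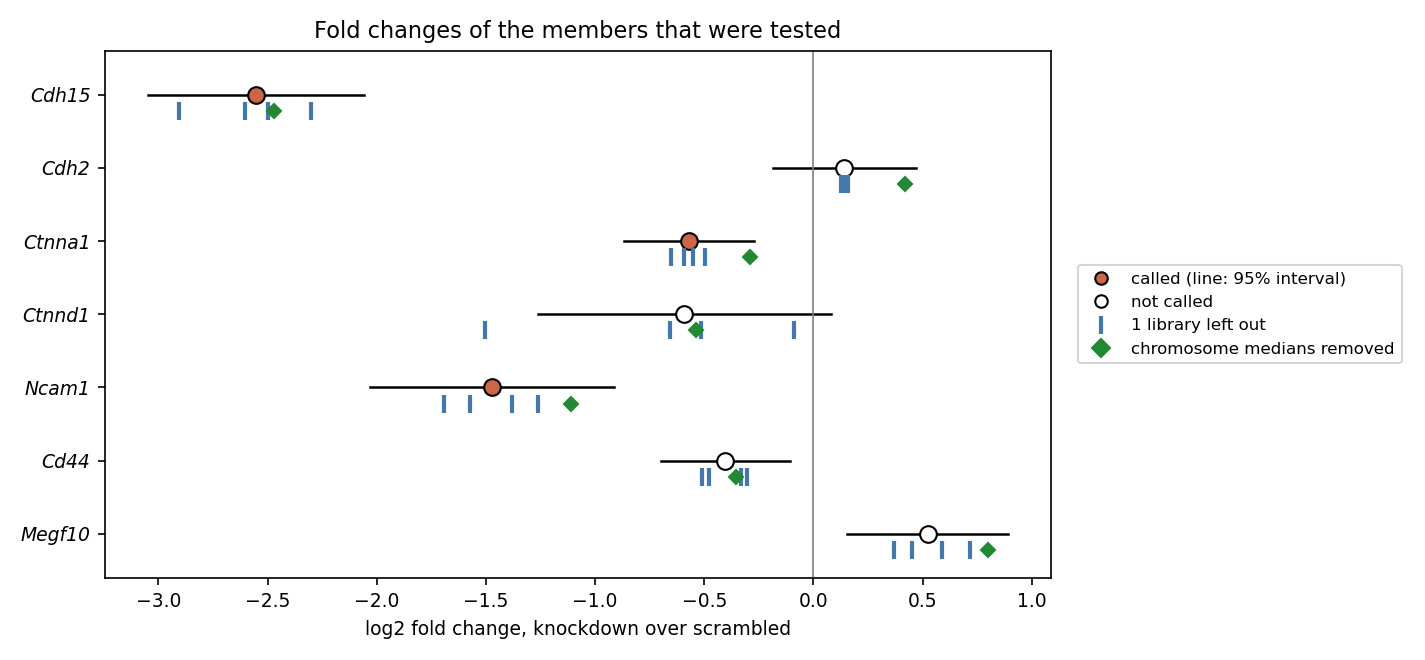
Log2 fold change (knockdown over scrambled) of the 7 tested members, with 95% intervals as black lines and filled circles for genes called. Blue ticks are the values with 1 library left out and green diamonds those with the chromosome medians removed. *Cdh15* at -2.55 and *Ncam1* at -1.47 lay below 0 in every setting drawn, and *Ctnna1* moved from -0.57 to -0.29 with the chromosome medians removed.

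The muscle-specific fusion genes were not detected. *Mymk* (myomaker, chromosome 2, 26951627 to 26962228) and *Mymx* (myomixer, chromosome 17, 45911239 to 45913028) had no reads in any of the 4 libraries, and the limit of 3 counts given for *Cdh11* applies to them too. Whether a 0 means that a gene was off cannot be told from these counts alone. *Myod1* had 1 read in all 4 libraries together. Of the fibroblast markers, *Col1a1* and *Thy1* were among those with none, while *Col3a1* had 2488. The annotation lists no other gene over the exons of *Myod1*, *Col1a1* or *Thy1*, and the cause of such low counts was not tested. *Myog*, the factor of early differentiation, had no reads either. The annotation lists no other gene over the exons of *Mymk*, *Mymx* or *Cdh11*.

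Further genes of adhesion and fusion were described from 6 lists chosen by their known roles, with 98 genes in all. Of these 70 had reads, 54 were tested, and 7 were called, 4 higher and 3 lower, where 5.55% of all tested genes were called. Of the 54, 35 had a log2 fold change below 0 and 19 above, with a median of -0.10. Over all genes tested, 4341 lay below 0 and 4329 above. In the list of other catenins and junction proteins, 2 of 7 tested genes were called, both higher, where 2.33% of all genes tested were called higher. Of the 7, 5 had a log2 fold change above 0 and 2 below. *Ctnnal1*, related to alpha-catenin, had a log2 fold change of 1.23 (SE 0.20, adjusted p = 0.000942 from edgeR), from 49 and 50 reads to 111 and 91. *Afdn*, afadin, which ties nectins to actin, rose by 0.84 (SE 0.23, adjusted p = 0.0366 from edgeR), but was not called by any of the 4 DESeq2 fits, after removal of chromosome medians or with any single library left out. *Iqgap1* had the most reads of that list and a log2 fold change of 0.12 (adjusted p = 0.673 from edgeR). Beta-catenin, the partner that links cadherins to alpha-catenin, could not be followed: *Ctnnb1*, looked up after the values were seen, had 3, 5, 3 and 0 reads in the 4 libraries, and 9.37% of its exonic bases are shared with *Ulk4* on the other strand. Whether reads over both genes were set aside depends on the strand setting, which is not given.

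Among 12 tested adhesion molecules, 1 was called lower and 1 higher, where 3.22% and 2.33% of all genes tested were called. Of the 12, 8 had a log2 fold change below 0 and 4 above, beside 4341 and 4329 of all genes tested. The unadjusted p was below 0.05 for 4 of the 12 and for 21.8% of all genes tested. *Mcam*, a receptor of the immunoglobulin family, went from 29 and 37 reads to 7 and 2 after knockdown, a log2 fold change of -2.64 (SE 0.45, adjusted p = 0.00148 from edgeR). It passed the filter on low counts through the scrambled libraries, and a filter of at least 10 counts in every library leaves it out. *Cadm1*, a cell adhesion molecule of the same family and the most read gene of the list, went from 75 and 123 reads to 195 and 149 and rose by 1.01 (SE 0.18, adjusted p = 0.00169 from edgeR). Both genes lie on chromosome 9 with its median of -0.37, as *Ncam1* does, and they moved in opposite directions. None of the 7 calls was kept in the fit without knockdown 1, where 20 genes were called in all.

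Of 25 tested genes with known roles in fusion, 2 were called, a share near the 5.55% of all genes tested. *Kirrel1*, which is related to the fusion receptors of flies, rose by 0.79 (SE 0.20, adjusted p = 0.0266 from edgeR), and *Trio*, which acts downstream of M-cadherin, fell by 0.71 (SE 0.20, adjusted p = 0.0415 from edgeR). Neither was called by any of the 4 DESeq2 fits, after removal of chromosome medians, without scrambled 2 or without knockdown 1, and *Trio* was also not called without scrambled 1, without knockdown 2 or with upper quartile factors. *Cdc42*, the most read gene of the list, stood at -0.04 (adjusted p = 0.886 from edgeR). Beside *Cd44*, the hyaluronan synthase *Has2* went from 70 and 91 reads to 38 and 27 and fell by 1.10 (SE 0.23, adjusted p = 0.00663 from edgeR), the 1 gene called of 7 tested in its list. The parametric fit of DESeq2 and the fit without knockdown 1 did not call *Has2*. *Msn*, moesin, which links CD44 to actin, had the most reads there and a value of 0.02 (adjusted p = 0.944 from edgeR). Neither of the 2 tested relatives of *Megf10* was called, *Megf9* having the most reads (log2 fold change -0.74, SE 0.47, adjusted p = 0.374 from edgeR).

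**Figure D4:**
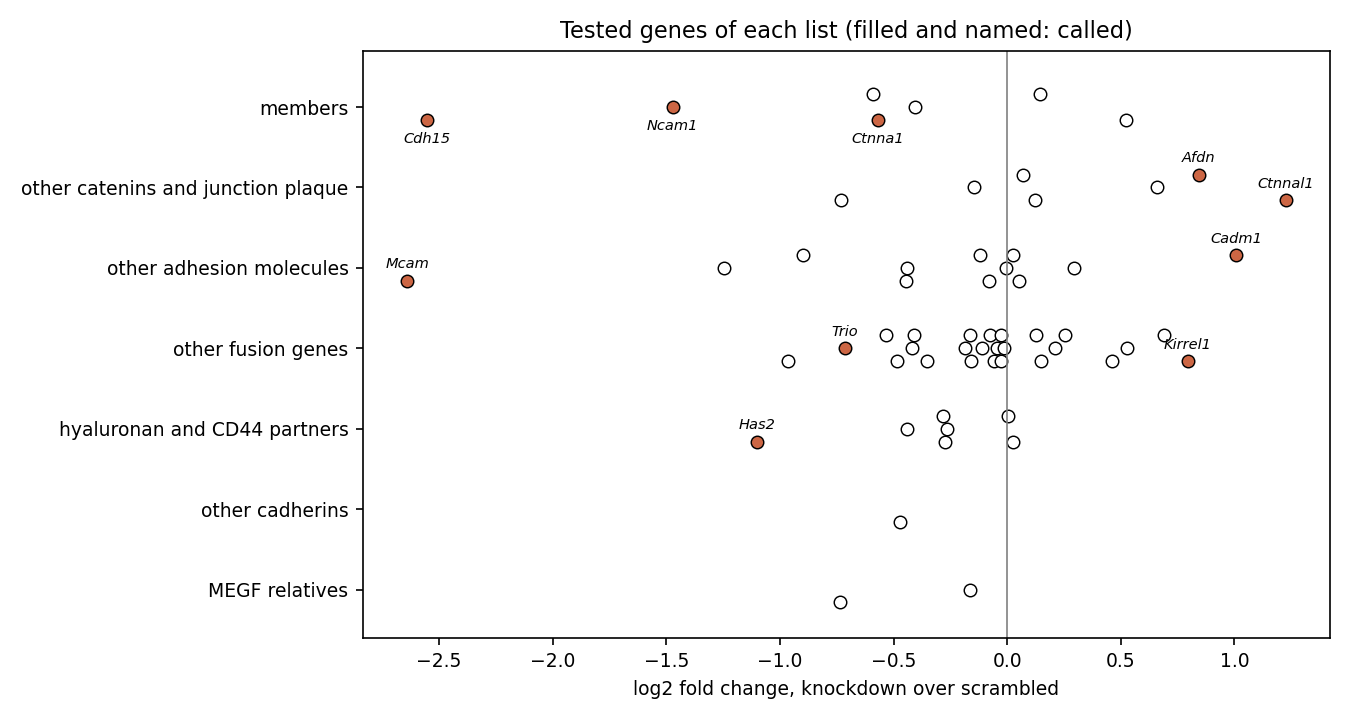
Log2 fold change (knockdown over scrambled) of every tested gene in the list of members and in the 6 lists of related genes, with 1 circle per gene. Filled circles with names are the genes called, 3 of the members and 7 of the 54 tested related genes. Vertical offsets within a row only separate the circles.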

How the data were processed

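Direct RNA of 4 C2C12 libraries was basecalled by the authors with guppy, mapped to GRCm39 with minimap2 2.17 and counted per gene with HTSeq 0.9.1, as the methods and the submitters' processing notes give it. The deposited values are whole read counts per Ensembl gene ID. The annotation release and the strand setting of the counting are not given in the sources used here. Reads not assigned to a gene made up 42.2% to 43.5% of each library, 16.0% to 16.5% because they overlapped more than 1 gene, and stayed out of totals and tests. Of 56748 gene IDs, 56017 were found in GENCODE vM39, which gave symbols, positions and overlaps.

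The groups were compared by edgeR 4.0.16 (under R 4.3.3, with TMM, filterByExpr, quasi-likelihood test), with Benjamini-Hochberg adjustment over the 8670 genes tested. The standard error is the log2 fold change divided by the square root of F. Calls used the thresholds of the study: more than 10 normalized counts on average, a log2 fold change beyond 0.5 in size and an adjusted p below 0.05. Normalized counts are reads divided by the TMM-adjusted library size and multiplied by the average library size before that adjustment. The fits were tested on simulated data.

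Replicate numbers pair the libraries by the batch in the labels. The deviations of same-numbered libraries from the means of their groups correlated at -0.01 over 7705 genes. Alternatives were the replicate block, other scaling factors, filters and thresholds, 4 DESeq2 1.42.0 configurations, the removal of chromosome medians, other forms of the quasi-likelihood fit and each library left out in turn. The members and lists were chosen with earlier results of these data known. Named genes are all members, *Hnrnpl*, and, from each list of related genes, those called and the 1 with the most reads. From the marker lists, some of the genes with the most reads and some of those at 0 are named. Other genes named were chosen after their values were seen. Transcript-level counts and qPCR were not analysed here.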

Additional observations from a re-analysis of the deposited data

How the results depend on the processing

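All 112 alternative values of the 7 tested members had the direction given in the report, and 101 of them also lay on the same side of an adjusted p of 0.05. *Cdh15* was under 0.05 in all of its alternatives. With the parametric fit of DESeq2 the log2 fold change was -0.58 for *Ctnna1* and -1.48 for *Ncam1* by both the Wald and the likelihood-ratio test, neither under 0.05, and 1 member was called. With chromosome medians removed, *Ctnna1* stood at -0.29 and lost its call, while *Megf10* stood at 0.80 and gained one. With single libraries left out, *Ctnna1* lay between -0.65 and -0.50 and was over 0.05 each time, *Ncam1* lay between -1.69 and -1.26 and was over 0.05 without knockdown 1, and between 1 and 2 members were called. These fits rest on a lone library in 1 group, which is taken to vary like the other group. The replicate block changed no call of a member: *Cdh15* was at -2.56, *Ncam1* at -1.47 and *Ctnna1* at -0.57, and 3 members, 7 genes of the related lists and 484 of all genes were called.

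The 7 calls in the 6 related lists became 4 with the local fit of DESeq2 by either test, 3 with the parametric fit, 4 at an adjusted p under 0.01, and between 0 and 7 with a library left out. Over all genes, 481 calls became 228 and 222 with the local fit (Wald and likelihood-ratio), 115 and 112 with the parametric fit, 287 with chromosome medians removed, 199 at an adjusted p under 0.01, and between 20 and 444 with a library left out, the fewest without knockdown 1. The cause was not tested. For genes without a read, a limit of 3 counts corresponds to 2.52 to 3.51 normalized counts and covers counting error only.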
